A study of Mus musculus with 55 samples.

Results

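Gnas, Nespas, Nnat and Blcap are 4 genes of 2 imprinted domains on distal mouse chromosome 2. They were taken by name from the 51734 genes of the oocyte count tables, and all 4 were also listed among the 24421 genes of the maternal and paternal count tables of embryos. In the mm10 coordinates of the files, Blcap lies on the minus strand at chr2:157556362-157571274, and Nnat on the plus strand at chr2:157560078-157562522, inside the span of Blcap. Nespas lies on the minus strand at chr2:174281237-174295436, and Gnas on the plus strand at chr2:174284320-174346744, so that the 5′ end of Gnas overlaps Nespas.

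Each oocyte library was made from 1 cell, either a fully grown oocyte (FGO, the stage at which the oocyte genome has gained its methylation and transcription has largely stopped) or a wild-type oocyte at metaphase II (MII, the mature egg). Wild-type libraries comprised 18 FGOs and 10 MII oocytes. Mutant FGOs, 8 of each kind, were Dnmt3a ADD/ADD (genotype Dnmt3a ADA/ADA with Dnmt3L+/+), Dnmt3L ADD/ADD (Dnmt3a+/+ with Dnmt3L D124A on both alleles) or double mutant, homozygous for both changes. FGOs came from ovaries of females aged 10 to 12 weeks, with the cumulus cells washed off, and the labels give no age for the MII donors. The changes replace aspartate by alanine in the ADD domain, the part of DNMT3A and DNMT3L that binds the tail of histone H3 where lysine 4 is not methylated, and they were carried by every cell of the females rather than by the oocytes alone. The 3 embryos, labelled embryonic day 9, came from double mutant oocytes fertilized in vitro with wild-type JF1 spermatozoa, so that their maternal allele is basically C57BL/6J and their paternal allele JF1. Wild-type embryos were not analysed here, so no value below compares these embryos with normal ones. The labels do not say how many females gave the oocytes, and the p-values measure only the spread between libraries.

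Total counts per oocyte library ran from 7832458 to 23739871, and the embryos gave 7534598, 8547786 and 6998944 allelic counts. The oocyte libraries are divided here into a class with a lower and a class with a higher share of mapped reads. These shares come from the sequencing summary of the study. Wild-type FGO replicates 1 to 8 (8 libraries), all 8 double mutant FGOs, 3 Dnmt3a ADD/ADD FGOs and 3 MII oocytes were in the lower class, and all 8 Dnmt3L ADD/ADD FGOs were in the higher class. Among wild-type FGOs alone, 25.4% of 14664 genes differed between the classes (edgeR quasi-likelihood test, adjusted p under 0.05). The class is therefore named beside the oocyte results of Gnas, Blcap and Nnat. Oocyte values of Nespas, the gene and marker lists and the neighbours are over all libraries unless a class is named. The part of the class in the lists and neighbours was not tested. The double mutant comparison with wild type called 12.2% of all genes over all libraries, and 1.04% within the lower class. The double mutant and Dnmt3L ADD/ADD groups share no class, so that class and genotype cannot be told apart between them. Dnmt3a and Dnmt3l mRNA did not pass the test in any mutant, with log2 changes of -0.06 to 0.19, and mRNA levels do not check these substitutions.

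Imprinted genes are expressed mainly or wholly from the allele inherited from one particular parent, and the mark that sets this is DNA methylation laid down in the germ line of the mother or the father. In both domains the germline methylation is placed in the oocyte. Nnat encodes neuronatin, a small membrane protein of the developing brain and of endocrine cells, and is known to be expressed from the paternal allele because its promoter is methylated on the maternal one. Blcap, whose intron holds Nnat on the opposite strand, encodes a small membrane protein and is biallelic in most tissues, with a maternal bias in brain. The Gnas locus makes several transcripts from separate first exons that splice onto common downstream exons. They are Nesp from the maternal allele, the XLas and exon 1A transcripts from the paternal allele, and the transcript of Gs-alpha, the G protein subunit that activates adenylyl cyclase, from both alleles in most tissues. Nespas is a noncoding RNA transcribed from the paternal allele, antisense to the Nesp exon. In oocytes, Gs-alpha and cyclic AMP are known for holding the cell in meiotic arrest.

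Promoter sequences are shown for the starts whose maternal methylation, or lack of it, the imprint of each domain is known by. RefSeq windows of 300 bases on GRCm38 (250 before to 50 after a start) were found for Nnat, for Blcap and for 4 starts of Gnas, and no window was found for Nespas. They are printed 5′ to 3′ on the plus strand, and the capitals mark GCGGCA, the reverse complement of TGCCGC, the hexamer that the imprint protector ZFP57 is known to bind when it is methylated. The exon 1A window is the start whose maternal methylation is known from the germ line, and the Gs-alpha window is its unmethylated neighbour downstream.
Nnat, chr2:157559828-157560127: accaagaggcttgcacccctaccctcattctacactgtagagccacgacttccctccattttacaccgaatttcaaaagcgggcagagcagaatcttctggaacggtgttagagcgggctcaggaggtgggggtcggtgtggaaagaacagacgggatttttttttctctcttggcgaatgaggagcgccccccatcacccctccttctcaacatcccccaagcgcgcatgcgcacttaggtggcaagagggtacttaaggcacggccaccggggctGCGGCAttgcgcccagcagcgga
Gnas exon 1A, chr2:174327518-174327817: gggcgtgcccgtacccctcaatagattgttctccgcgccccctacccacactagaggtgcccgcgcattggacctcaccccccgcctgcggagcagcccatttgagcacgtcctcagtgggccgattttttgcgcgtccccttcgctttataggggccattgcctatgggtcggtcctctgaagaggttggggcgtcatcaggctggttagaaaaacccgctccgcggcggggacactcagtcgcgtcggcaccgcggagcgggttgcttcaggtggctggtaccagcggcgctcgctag
Gnas Gs-alpha, chr2:174329756-174330055: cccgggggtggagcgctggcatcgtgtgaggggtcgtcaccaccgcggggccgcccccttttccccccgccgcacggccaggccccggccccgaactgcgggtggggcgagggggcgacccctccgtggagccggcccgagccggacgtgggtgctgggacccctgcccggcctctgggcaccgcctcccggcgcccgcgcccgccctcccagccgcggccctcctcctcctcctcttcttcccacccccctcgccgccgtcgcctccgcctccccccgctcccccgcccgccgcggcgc

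The hexamer was searched on both strands in 32851 such windows and was present in 11.6% of them. It occurred in 1 of the 6 windows of the 4 genes, that of Nnat, beginning at base 278 of the window. The windows held 17 CG dinucleotides in Nnat, 17 in Blcap, 16 at the Nesp start, 28 at the exon 1A start shown and 40 at the Gs-alpha start, against a median of 7 over all windows. The CG count of the Gs-alpha window was above that of 96.1% of all windows.

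What each row could count differs between the genes. The Gnas row covers 24 transcripts in the GENCODE annotation of mm10, among them 5 starting in the Nesp region, 7 at the XLas start, 6 around exon 1A and 4 around the Gs-alpha start, so that its count is a sum over transcripts of maternal, paternal and biallelic origin. The exons of Gm20721, an antisense row, cover 80.4% of the 1789 exonic bases of a Gs-alpha transcript, and Gm20721 had at most 1 count in any of the 52 oocyte libraries. Reads in those bases were thus counted on Gnas alone or on neither row, and which of these holds is not given in the sources used here. Nespas shares 31.4% of its exonic bases with Gnas. Nnat and Blcap share no exonic base, but the oocyte kit does not mark strand, so that reads of unspliced Blcap RNA across Nnat cannot be told apart from Nnat. In the same way, reads of Gnas RNA across Nespas, spliced or not, cannot be told apart from Nespas.

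By these counts Blcap had by far the highest level of the 4 genes in oocytes, Gnas was low, and Nespas and Nnat were close to the limit of detection. The Gnas level may be too low, since its row spans 11186 exonic bases of several transcripts and reads under Gm20721 may be uncounted. Mean levels in wild-type FGOs were 35.3 CPM (counts scaled to a common library size) per kilobase of exon for Blcap, 1.18 for Gnas, 0.230 for Nnat and 0.175 for Nespas. Gnas, Blcap and Nespas passed the filter on low counts in the fit of all FGOs, and Nnat did not.

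**Figure D1:**
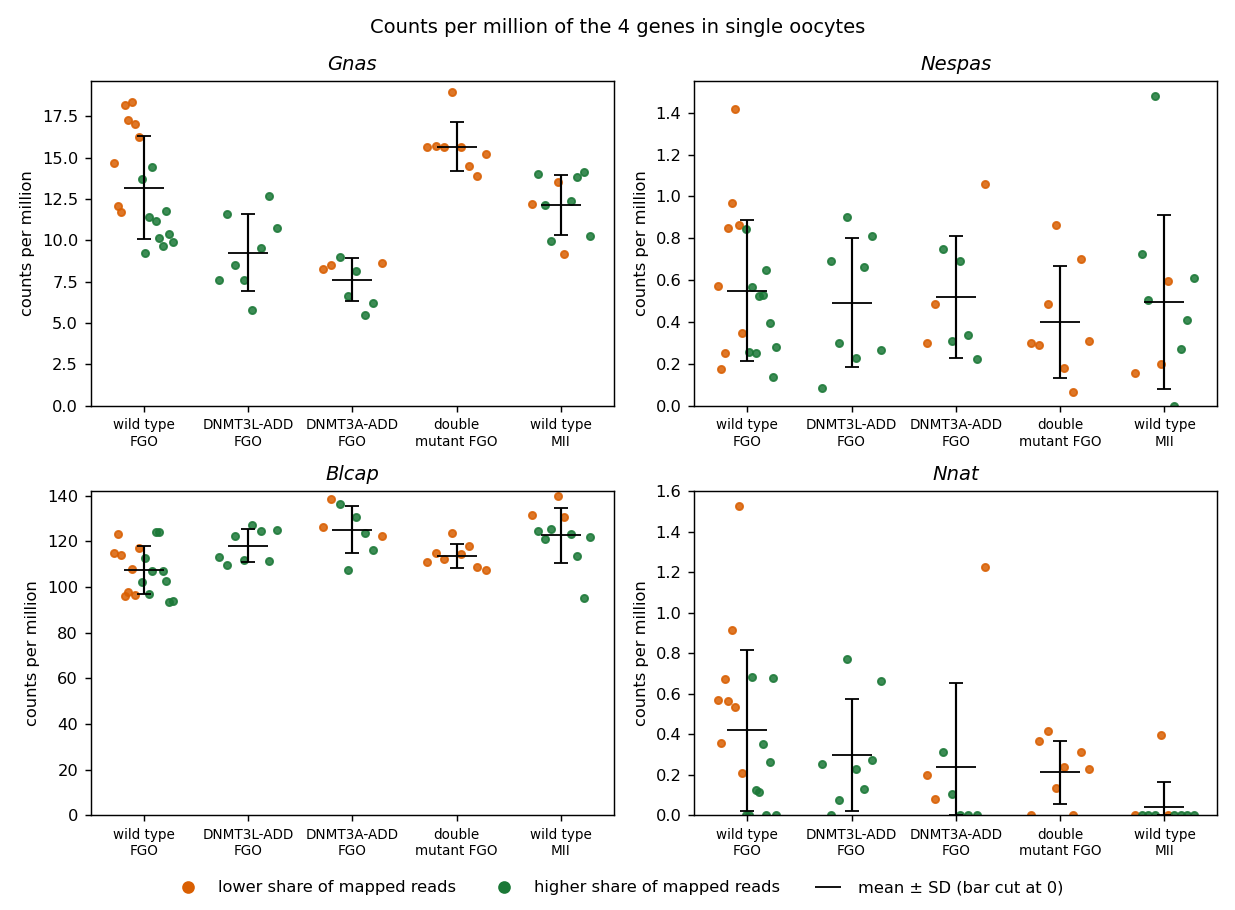
CPM of Gnas, Nespas, Blcap and Nnat (vertical axes, linear, each from 0) in every single-oocyte library of the 5 groups, with points coloured by the class of mapped reads and the mean ± SD of each group in black. All 8 Dnmt3a ADD/ADD FGOs lie below every wild-type FGO for Gnas (highest 9.02 against lowest 9.26 CPM), and 9 of 10 MII oocytes lie at 0 for Nnat.

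Over all libraries Gnas was lower in both single mutants and not in the double mutant. Within a class of mapped reads only the Dnmt3a ADD/ADD fall passed the test. In wild-type FGOs it ranged from 9.26 to 18.4 CPM with a median of 11.9 (mean 13.2 ± 3.12, SD, n = 18), on 136 to 311 counts. In Dnmt3a ADD/ADD FGOs it ranged from 5.51 to 9.02 CPM with a median of 8.20 (mean 7.62 ± 1.31, SD, n = 8). No Dnmt3a ADD/ADD library reached the lowest wild-type library. In Dnmt3L ADD/ADD FGOs the range was 5.81 to 12.7 CPM with a median of 9.03 (mean 9.27 ± 2.31, SD, n = 8), which overlaps the wild-type range. In double mutant FGOs it was 13.9 to 18.97 CPM with a median of 15.6 (mean 15.7 ± 1.49, SD, n = 8), within or just above the wild-type range. MII oocytes lay between 9.20 and 14.1 CPM with a median of 12.3 (mean 12.2 ± 1.80, SD, n = 10).

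Against wild-type FGOs, Gnas fell by 0.79 on the log2 scale in Dnmt3a ADD/ADD FGOs (SE 0.133, adjusted p = 7.22e-05) and fell by 0.50 in Dnmt3L ADD/ADD FGOs (SE 0.131, adjusted p = 0.0165). The double mutant differed by 0.24 (SE 0.125, adjusted p = 0.198), with a 95% interval from -0.01 to 0.49. Of the 3 members tested, 2 (Gnas and Blcap) were called in Dnmt3a ADD/ADD FGOs, where 15.7% of all genes were. In Dnmt3L ADD/ADD FGOs 1 (Gnas) was called, against 6.13% of all genes, and in the double mutant 0 were, against 12.2%. For the double mutant, DESeq2 and the edgeR exact test also called 0 of them, and none had an unadjusted p under 0.05. The calls were smaller than 2-fold, the minimum that the study set for its own lists, which 2.05%, 0.655% and 1.65% of all genes passed in the 3 mutants in this order. These 3 comparisons share the wild-type libraries.

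The values of Gnas also moved with the class of mapped reads. Among wild-type FGOs Gnas averaged 15.7 ± 2.61 CPM in the 8 libraries of the lower class and 11.2 ± 1.73 CPM in the 10 of the higher class, a log2 difference of -0.50 for higher minus lower (SE 0.115, adjusted p = 0.00390). Within the lower class the Dnmt3a ADD/ADD change was -0.89 (SE 0.152, adjusted p = 0.00360, 3 against 8 libraries, 6.44% of genes called), and within the higher class it was -0.65 (SE 0.159, adjusted p = 0.0103, 5 against 10 libraries, 8.59% called). The Dnmt3a ADD/ADD difference thus passed the test in each class. Within the higher class the Dnmt3L ADD/ADD difference was -0.26 (SE 0.134, adjusted p = 0.256, 7.84% called), so that call was lost. With the class as a covariate it was -0.29 (SE 0.119, adjusted p = 0.159, 4.27% called), against -0.75 in Dnmt3a ADD/ADD FGOs (SE 0.113, adjusted p = 1.09e-05, 16.2% called). Within the lower class the double mutant difference was -0.03 (SE 0.105, adjusted p = 0.968, 1.04% called), and 0.02 with the class as a covariate (SE 0.120, adjusted p = 0.949, 2.61% called).

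The mutants also differed from each other in Gnas. The double mutant exceeded Dnmt3a ADD/ADD FGOs by 1.03 on the log2 scale (SE 0.152, adjusted p = 1.28e-05), with no overlap of the groups, in a comparison that called 30.9% of all genes and 5.86% past 2-fold. Within the lower class the difference was 0.87 (SE 0.152, adjusted p = 0.00395, 11% called). It exceeded Dnmt3L ADD/ADD FGOs by 0.74 (SE 0.151, adjusted p = 0.000821, 24.2% of genes called, 4.03% past 2-fold), also without overlap, but with class as a covariate the difference was 0.32 (SE 0.163, adjusted p = 0.335, 1.18% called). The difference between the 2 single mutants did not pass the test (-0.29 for Dnmt3a ADD/ADD minus Dnmt3L ADD/ADD, 95% interval -0.60 to 0.02, adjusted p = 0.809, 0.0127% of genes called, and 0.109% within the higher class). The non-additive term, the double mutant change minus the sum of both single mutant changes, was 1.53 (SE 0.201, adjusted p = 4.13e-07), and 1.06 with class as a covariate (SE 0.202, adjusted p = 0.000397). That contrast called 35.6% of all genes (10.3% past 2-fold), or 14.2% with the covariate. The covariate takes its class difference from wild-type and Dnmt3a ADD/ADD FGOs, the only FGO genotypes with both classes. It does not separate class from this term. By the mean over all libraries the order of the groups was double mutant, wild-type FGO, wild-type MII, Dnmt3L ADD/ADD and Dnmt3a ADD/ADD. By the median MII (12.3 CPM) stood above wild-type FGO (11.9 CPM), and within the lower class the means of the double mutant and wild type were both 15.7 CPM. In the order of the means the steps from double mutant to wild type, from wild-type FGO to MII and between the single mutants did not pass the test and that from MII to Dnmt3L ADD/ADD was not tested.

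Over all libraries some oocyte marker genes fell in both single mutants, where Gnas also fell (in Dnmt3L ADD/ADD FGOs not past the test within its class). Some fell in MII oocytes too, where Gnas did not pass the test. The summed level of 14 markers (genes of the egg coat, growth factors and oocyte transcription) ran from 7932 to 12157 CPM in wild-type, 7242 to 9322 in Dnmt3a ADD/ADD, 7807 to 10074 in Dnmt3L ADD/ADD and 11112 to 12463 in double mutant FGOs. Of the 13 tested, 7 fell in Dnmt3a ADD/ADD and 6 in Dnmt3L ADD/ADD FGOs, and 3 rose in the double mutant. In MII oocytes the sum ran from 7954 to 8682 CPM and 6 of 13 fell. Granulosa cell markers, 16 genes of the follicle cells that surround the oocyte, summed to 258 to 432 CPM over all FGOs. Of 15 tested, 5, 2 and 7 were lower and 1, 0 and 1 higher in the 3 mutants in the same order. Their median log2 differences were -0.34, -0.33 and -1.17. The 9 markers of theca and interstitial cells summed to 25.7 to 162 CPM in wild-type FGOs and 18.9 to 26.5 in double mutants. Of 7 tested, 2, 3 and 5 were lower, with median log2 differences of -0.77, -0.90 and -3.70. Of all genes, 7.61%, 3.06% and 6.74% were lower and 8.06%, 3.07% and 5.51% higher in the 3 mutants in the same order. In MII oocytes 22.6% of all genes were lower and 16.5% higher. The part of these lists in the Gnas values was not tested.

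**Figure D2:**
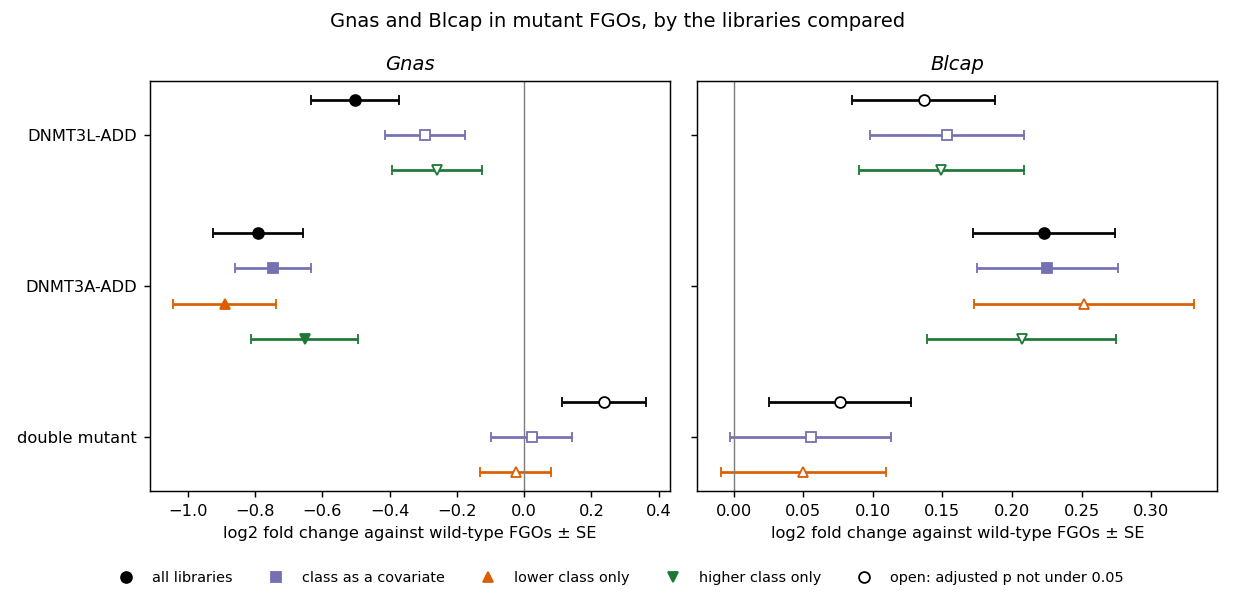
Log2 fold change of Gnas and Blcap against wild-type FGOs (horizontal axis, ± SE, with separate scales) in the 3 mutants, for all libraries, with the class of mapped reads as a covariate, and within a class. The Dnmt3a ADD/ADD value of Gnas is past the test in each setting (filled symbols), and the Dnmt3L ADD/ADD value is only with all libraries.

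Blcap was steady by comparison, with small gains. Its level ran from 93.4 to 124 CPM in wild-type FGOs (median 107, mean 107 ± 10.6, n = 18), from 108 to 138 in Dnmt3a ADD/ADD (median 125, mean 125 ± 10.2, n = 8), from 110 to 127 in Dnmt3L ADD/ADD (median 118, mean 118 ± 7.23, n = 8) and from 107 to 123 in double mutants (median 113, mean 114 ± 5.24, n = 8). All of these ranges overlap. Only the Dnmt3a ADD/ADD difference passed the test, at 0.22 on the log2 scale or 1.17-fold (SE 0.0510, adjusted p = 0.00228), against 0.14 in Dnmt3L ADD/ADD (SE 0.0512, adjusted p = 0.0998) and 0.08 in the double mutant (SE 0.0513, adjusted p = 0.328). The Dnmt3a ADD/ADD difference was of like size within each class, 0.25 in the lower and 0.21 in the higher, with adjusted p of 0.0588 and 0.0550, neither past the test. The non-additive term of Blcap was -0.28 (SE 0.0793, adjusted p = 0.00517), in a contrast that called 35.6% of all genes. The difference in Blcap between wild-type FGOs of the 2 classes did not pass the test (-0.03, SE 0.0673, adjusted p = 0.750).

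In MII oocytes Blcap reached 95.02 to 140 CPM (median 124, mean 123 ± 12.0, n = 10), 0.19 above wild-type FGOs on the log2 scale (SE 0.0492, adjusted p = 0.00169). That was 1 call among 3 members tested, where 39.1% of 15784 genes were called and 9.2% past 2-fold. Within the lower class the difference was 0.31 (adjusted p = 0.0474, 10.3% called), and within the higher class it was 0.14 and the call was lost (adjusted p = 0.126, 26.5% called). Gnas did not pass the test in MII oocytes (-0.12, SE 0.113, adjusted p = 0.424), with -0.43 in the lower and 0.14 in the higher class.

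Nespas had few counts and did not pass the test in any oocyte comparison. Its row had counts in all 18 wild-type FGOs, from 2 to 24, or 0.136 to 1.42 CPM with a median of 0.527 (mean 0.549 ± 0.337). The range was 0.221 to 1.06 CPM in Dnmt3a ADD/ADD, 0.0838 to 0.902 in Dnmt3L ADD/ADD and 0.0674 to 0.862 in double mutants, and 0 to 1.48 in MII oocytes, where 1 of 10 libraries was at 0. The groups overlapped throughout. The largest difference in a mutant was -0.48 in the double mutant (SE 0.390, adjusted p = 0.428), and its 95% interval from -1.27 to 0.31 does not exclude a fall of over 2-fold.

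Nnat was at the edge of detection in FGOs and had no count in most MII oocytes. In wild-type FGOs it had 0 to 23 counts, 115 in all, and was at 0 in 4 of 18 libraries, with a level of 0 to 1.53 CPM (median 0.354, mean 0.420 ± 0.397). In MII oocytes 9 of 10 libraries had no count and 1 had 4 counts, or 0.398 CPM, and a library at 0 still allows 3 counts, which is 0.197 to 0.289 CPM. Since Nnat was under the filter on low counts, its mean CPM was compared by permutation tests added after the data were seen, over 7 comparisons. The mean was 0.0398 CPM in MII oocytes against 0.420 CPM in wild-type FGOs, a difference past the test (two-sided permutation test with 100000 resamples, p = 0.00172, adjusted p = 0.0120). It was lower within each class too, with 0.133 against 0.668 CPM in the lower and 0 against 0.222 CPM in the higher class (exact permutation tests, p = 0.0364 and 0.0339, adjusted p = 0.0970 for both over 8 tests within classes). Blcap, the host of Nnat, rose in the comparison of all libraries. Granulosa markers summed to 304 to 360 CPM in MII oocytes against 299 to 432 in wild-type FGOs, with 2 of 15 higher and 9 lower. Their median log2 difference was -2.47, so the sum did not follow the median gene of the list. Theca and interstitial markers summed to 10.7 to 26.7 against 25.7 to 162 CPM, with 6 of 7 lower and a median log2 difference of -3.33. Of all genes, 22.6% were lower and 16.5% higher in this comparison. The part of these cells in the Nnat value was not tested.

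Among the mutants Nnat ranged from 0 to 1.23 CPM in Dnmt3a ADD/ADD (mean 0.240 ± 0.413, 3 of 8 at 0), from 0 to 0.773 in Dnmt3L ADD/ADD (mean 0.299 ± 0.276, 1 of 8 at 0) and from 0 to 0.417 in double mutants (mean 0.212 ± 0.157, 2 of 8 at 0). All of these overlap the wild-type range, and no difference from wild type passed the test over all libraries (exact permutation tests, p = 0.309, 0.461 and 0.143 in this order). Wild-type FGOs of the lower class averaged 0.668 ± 0.404 CPM and those of the higher class 0.222 ± 0.270 CPM. Against the wild-type FGOs of its own, lower class, the double mutant was lower by 0.456 CPM, with 6 of its 8 libraries above 0 against 8 of 8 (exact permutation test, p = 0.00280, adjusted p = 0.0224). The edgeR fit of the lower-class FGOs, which also held 3 Dnmt3a ADD/ADD libraries, gave -1.65 for Nnat (SE 0.601, adjusted p = 0.258). In it 1.04% of all genes were called. Unlike in the fit of all FGOs, Nnat passed the filter on low counts there. Its highest values were in wild-type (1.53 CPM) and Dnmt3a ADD/ADD FGOs (1.23 CPM), against 0.417 in the double mutant. It may have entered through the groups where it was high, so this fit gives no support of its own. The edgeR p was adjusted over 16187 genes and the permutation p over 8 tests, so the 2 adjusted values are not alike.

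Genes of the Gs and cyclic AMP pathway, to which Gs-alpha belongs, gave a mixed picture. Of 31 tested genes besides Gnas, 2 were lower and 0 higher in Dnmt3a ADD/ADD FGOs, 1 was lower and 0 higher in Dnmt3L ADD/ADD FGOs, and 3 were higher and 1 lower in the double mutant. Their median log2 differences of -0.02, -0.06 and 0.02 were near those of all genes tested, -0.03, -0.03 and -0.01. Gng5, a G protein gamma subunit, fell by 0.58 in Dnmt3a ADD/ADD FGOs (SE 0.146, adjusted p = 0.00526) and fell by 0.55 in Dnmt3L ADD/ADD FGOs (SE 0.146, adjusted p = 0.0176). Prkaca, the catalytic subunit of protein kinase A, fell by 0.34 in Dnmt3a ADD/ADD FGOs (SE 0.0600, adjusted p = 0.000122). In the double mutant Gpr3, the receptor that keeps cyclic AMP high in oocytes, rose by 0.25 (SE 0.0725, adjusted p = 0.0209), and Gnb4, a beta subunit, by 0.19 (SE 0.0390, adjusted p = 0.00153). Adcy6, an adenylyl cyclase, rose by 0.69 (SE 0.229, adjusted p = 0.0417). In MII oocytes 6 of the 31 were higher and 4 lower. Of all genes, 7.61%, 3.06% and 6.74% were lower and 8.06%, 3.07% and 5.51% higher in the 3 mutants in the same order, and 22.6% lower and 16.5% higher in MII oocytes. The list counts are over all libraries, and the part of the class of mapped reads in them was not tested.

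Other imprinted genes moved in both directions. Of 17 tested paternally expressed genes with maternal germline methylation, the kind to which Nnat and Nespas belong, 3 were higher in Dnmt3a ADD/ADD, 1 in Dnmt3L ADD/ADD and 3 in double mutant FGOs, and 0, 0 and 1 were lower. Of all genes, 8.06%, 3.07% and 5.51% were higher and 7.61%, 3.06% and 6.74% lower in these comparisons. Mest rose by 0.36 in Dnmt3a ADD/ADD (SE 0.0631, adjusted p = 0.000116) and by 0.24 in Dnmt3L ADD/ADD FGOs (SE 0.0636, adjusted p = 0.0193). Peg10 rose by 2.02 (SE 0.306, adjusted p = 3.29e-05) and Nap1l5 fell by 3.26 (SE 0.522, adjusted p = 6.64e-05) in the double mutant. In MII oocytes 7 of the 17 were lower and 0 higher, against 22.6% and 16.5% of all genes, among them Peg13 at -4.40 (adjusted p = 5.58e-08). Of 18 tested maternally expressed genes linked to such methylation, 2, 0 and 2 were higher and 1, 1 and 0 lower in the 3 mutants in the same order, with Ube3a falling by 0.41 in Dnmt3a ADD/ADD FGOs (SE 0.0717, adjusted p = 0.000132). Of 5 tested genes with paternal germline methylation, 0 were higher in any mutant and 1, 0 and 1 were lower.

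Over the 42 FGOs the patterns of log2 CPM most like that of Gnas were those of Gtpbp6 (Pearson r = 0.802), Cox7c (0.797) and Rfk (0.796), among 15726 genes. For Nespas they were Ahnak (0.644), Rfx3 (0.637) and Gtf2i (0.622), and for Blcap Ubac2 (0.768), Snrpb2 (0.760) and 9430038I01Rik (0.754). The libraries share class and genotype, so these are descriptions. Gnas and Nespas, which overlap, had r = 0.264, and Gnas and Blcap -0.415.

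Around the domains, in 500 kb on either side, 13 rows near Nnat and 8 near Gnas were tested in FGOs. Rprd1b, near Nnat, was lower in Dnmt3a ADD/ADD FGOs (-1.25, adjusted p = 0.00933), and none passed the test in Dnmt3L ADD/ADD FGOs. In the double mutant Samhd1 (-0.28, adjusted p = 0.00515) and Ctnnbl1 (-0.30, adjusted p = 0.0133) were lower and Manbal was higher (0.80, adjusted p = 0.0402) near Nnat, and Stx16 was higher near Gnas (0.51, adjusted p = 0.0498). In MII oocytes 6 rows were higher and 2 lower near Nnat, led by Tti1 (0.24), Rprd1b (-1.46) and Samhd1 (0.24), and 1 was higher and 2 lower near Gnas, namely Vapb (0.28), Atp5e (-0.38) and Npepl1 (-1.28). The comparison of MII oocytes called 16.5% of all genes as higher and 22.6% as lower, and in the mutants 15.7% (Dnmt3a ADD/ADD), 6.13% (Dnmt3L ADD/ADD) and 12.2% (double mutant) were called in either direction.

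In the embryos from double mutant oocytes, all 4 genes were counted from both alleles in every embryo. Nnat had 1151 maternal and 967 paternal counts in embryo 1, a maternal share of 54.3% (Wilson 95% interval 52.2 to 56.5). In embryo 2 it had 371 and 269 counts, a share of 58.0% (54.1 to 61.7), and in embryo 3 642 and 565 counts, a share of 53.2% (50.4 to 56.0). The maternal allele gave more counts than the paternal in all 3 embryos, and the mean share was 55.2% ± 2.49 (SD, n = 3). Intervals on single embryos cover counting error only.

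Maternal shares were above 50% over the genome, so each is read against the other genes of the same embryo. The median share of autosomal genes with at least 10 allelic counts was 51.4%, 58.8% and 51.3% in embryos 1, 2 and 3, and the median log2 ratio of maternal to paternal counts over all 10805 genes tested was 0.24. Against these medians Nnat was 2.99 and 1.86 percentage points higher in embryos 1 and 3 and -0.85 points in embryo 2. Its log2 ratio was 0.30 (SE 0.120, unadjusted p = 0.0582 and adjusted p = 0.300, edgeR with the embryo as a block), 0.06 above the median of all genes. The 95% interval of the fitted share ran from 49.7% to 60.5%. With each allele scaled to its own total, the log2 ratio was 0.06 (adjusted p = 0.780).

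Gnas had 1295 maternal and 1398 paternal counts in embryo 1 (48.1%, 46.2 to 49.98), 866 and 631 in embryo 2 (57.8%, 55.3 to 60.3) and 595 and 604 in embryo 3 (49.6%, 46.8 to 52.5). Its share minus the autosomal median of the same embryo was -3.26, -0.974 and -1.71 points, so it was just under the median in each. The mean was 51.9% ± 5.25 (SD, n = 3), and the log2 ratio was 0.11 (SE 0.155, adjusted p = 0.725), or -0.14 with each allele scaled to its own total. Since the row sums maternal, paternal and biallelic transcripts, the share of a single transcript cannot be read from it.

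Nespas, known as a paternal transcript, had more maternal than paternal counts in each embryo, on few reads. There were 23 and 7 counts in embryo 1 (76.7%, 59.1 to 88.2), 18 and 7 in embryo 2 (72.0%, 52.4 to 85.7) and 25 and 11 in embryo 3 (69.4%, 53.1 to 82.0). All 3 intervals lie above 50%, but that of embryo 2 includes its autosomal median. The mean was 72.7% ± 3.66 (SD, n = 3), the 96.7th percentile among 10192 autosomal genes tested, of which 3.28% had a mean as high. The log2 ratio of 1.40 (SE 0.447) had an unadjusted p of 0.0274 and did not pass the test over all genes (adjusted p = 0.240). The embryo libraries were made with a directional kit, but whether strand was used in counting is not given in the sources used here. Counts from overlapping Gnas RNA, spliced or not, may thus be among those of Nespas.

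The maternal share of Blcap differed between the embryos. There were 104 maternal and 107 paternal counts in embryo 1 (49.3%, 42.6 to 56.0), 97 and 88 in embryo 3 (52.4%, 45.3 to 59.5), and 180 and 61 in embryo 2 (74.7%, 68.8 to 79.8). The interval of embryo 2 overlaps neither of the others. The mean of 58.8% had an SD of 13.8 (n = 3), and 14.7% of autosomal genes had an SD as large. The log2 ratio was 0.54 (SE 0.391, adjusted p = 0.488), and without embryo 2 it was 0.0491. The 0 of 4 members called stood against 0.555% of all genes called, and 1 of the 4, Nespas, had an unadjusted p under 0.05.

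**Figure D3:**
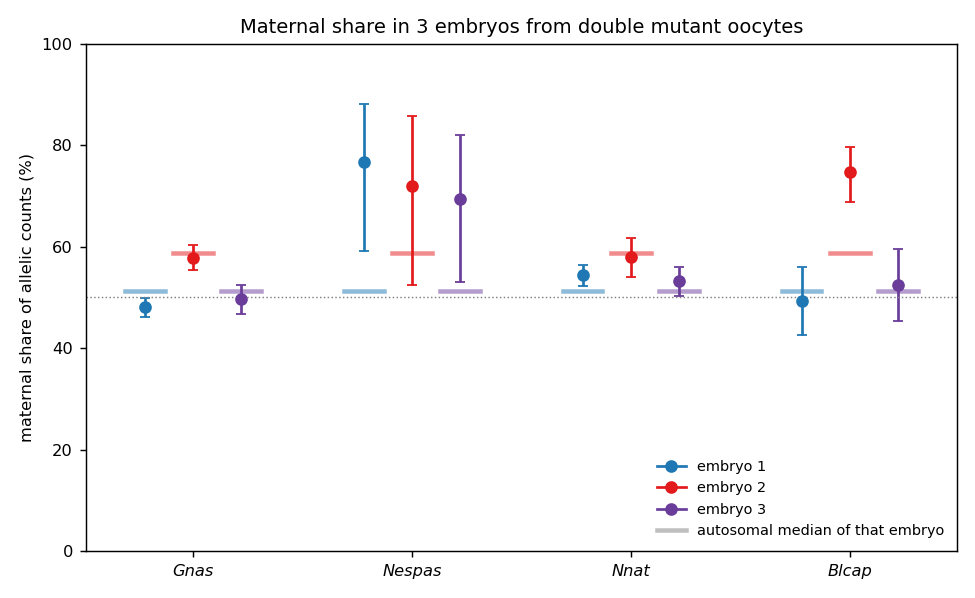
Maternal share of allelic counts (vertical axis, percent) of the 4 genes in each of the 3 embryos, with Wilson 95% intervals, and short bars at the median of autosomal genes of the same embryo. Gnas and Nnat lie close to these bars (Gnas from -3.26 to -0.974 points), Nespas lies above them, and Blcap lies far above in embryo 2 (by 15.9 points) while its intervals in embryos 1 and 3 include the median.

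Maternal shares of other imprinted genes differed by list. Mean shares of the 18 tested paternally expressed genes with maternal germline methylation, members left out, ran from 22.4% to 71.8% with a median of 46.3%, and 11 of them lay between 40% and 60%, as did 76.9% of all autosomal genes tested. Those of 10 maternally expressed genes linked to such methylation ran from 49.9% to 82.1%. The 6 tested genes with paternal germline methylation were all outside this band, 2 under 10% and 4 over 90%. Igf2 was at 4.85%, Dlk1 at 9.93% and Meg3 at 99.1%. The mean shares of Nnat (55.2%), Gnas (51.9%) and Blcap (58.8%) lay between 40% and 60%. At the ends of the maternal methylation list were Ndn at 22.4% ± 16.7 and Peg13 at 71.8% ± 2.39 (SD, n = 3). Of the pathway of Gs-alpha, 20 of 28 tested genes lay between 40% and 60%, with Gng4 lowest at 29.2% and Prkar1b highest at 70.4%.

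Near Nnat the mean shares of 10 tested genes ran from 43.8% (Vstm2l) to 56.9% (Rprd1b) with a median of 50.9%, and none passed the test. Ctnnbl1 was at 47.4%, Rbl1 at 48.8%, Manbal at 52.9% and Samhd1 at 53.6%. Near Gnas the 7 tested genes ran from 46.4% (Ctsz) to 83.9% (Edn3) with a median of 58.4%. Atp5e, a subunit of ATP synthase, was at 77.4% ± 0.995 (SD, n = 3; adjusted p = 0.0246) and was the only neighbour past the test, while Npepl1 was at 66.1%, Nelfcd at 53.1% and Vapb at 48.7%. High maternal shares near Gnas were thus found beside genes at or near the autosomal median.

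**Figure D4:**
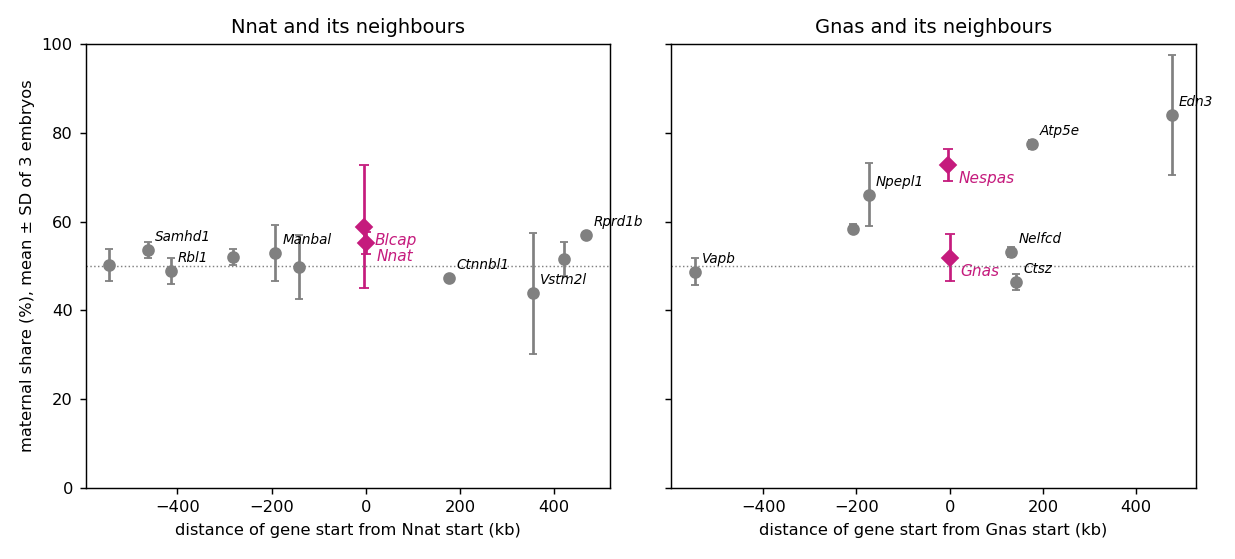
Mean maternal share (vertical axis, percent, ± SD of 3 embryos) of tested genes within 500 kb of each domain, by the distance of the gene start from the start of Nnat or Gnas in kilobases, with the 4 genes as diamonds. Near Nnat all points lie between 43.8% and 58.8%, and near Gnas Nespas (72.7%), Atp5e (77.4%) and Edn3 (83.9%) lie above Gnas (51.9%).

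The level of Nnat and Gnas also differed between the embryos, together with tissue markers. Nnat had 281, 74.9 and 172 allelic CPM in embryos 1, 2 and 3, a range of 3.75-fold, and Gnas had 357, 175 and 171, a range of 2.09-fold. Blcap lay between 26.4 and 28.2. Nnat and Gnas were both highest in embryo 1, while Blcap was even. For Blcap in embryo 2 the maternal allele had 21.1 and the paternal 7.14 CPM, against 13.8 and 14.2 in embryo 1 and 13.9 and 12.6 in embryo 3. In these bulk samples fewer cells of a type and less RNA per cell cannot be told apart.

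The 3 samples, all labelled mouse embryo, differed in their tissue markers. A list of 16 genes of embryonic blood, heart, neural tube and somite summed to 4837, 186 and 475 allelic CPM in embryos 1, 2 and 3, and 8 genes of yolk sac and liver endoderm summed to 145, 4004 and 1521. Hba-x, an embryonic globin, was at 1683, 5.15 and 1.71, and Afp, made by yolk sac and liver, at 38.1, 353 and 220. Trophoblast markers summed to 25.7, 198 and 243, and decidua markers, from the lining of the uterus, to 118, 125 and 47.3. Decidua markers were 43.8%, 73.7% and 52.6% maternal in the same order, a rank unlike that of their sums. Of the 2 genes of this list read singly, Prl8a2 was at 0.398, 6.20 and 1.86 allelic CPM, which ranks the embryos as the maternal share does. Prl3c1 had 3 counts in embryo 2 and 0 in embryos 1 and 3. Adult blood markers summed to 3.32, 59.2 and 3.29, with 95.1% maternal counts in embryo 2. The rank of Nnat over the embryos was that of the embryonic list. The part of these tissues in the levels and shares of the 4 genes was not tested.

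**Figure D5:**
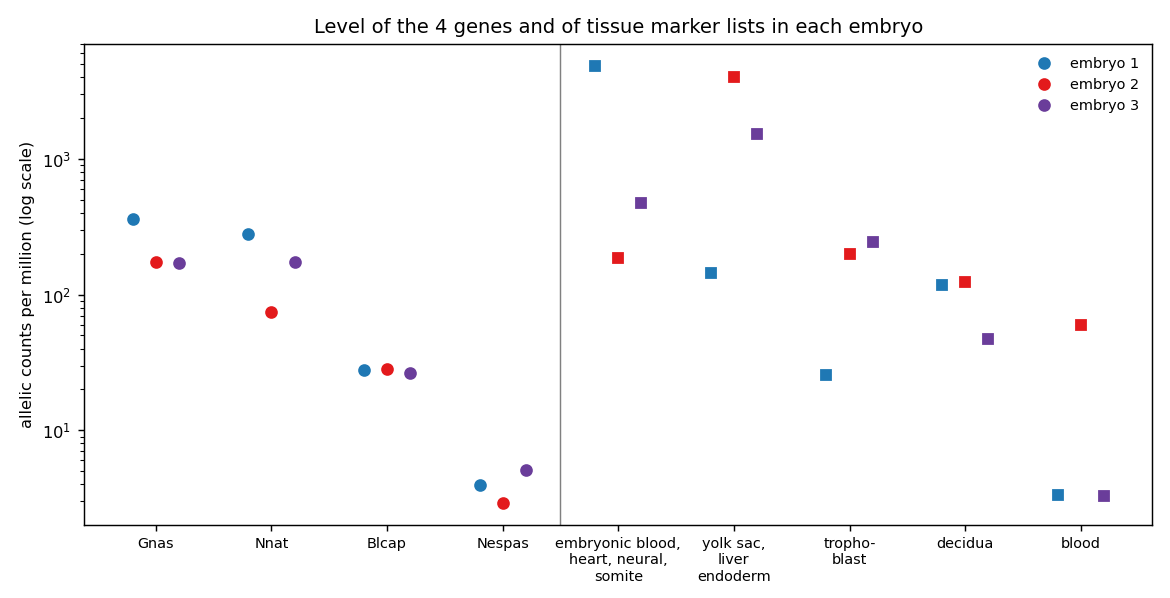
Allelic CPM (vertical axis, log scale) of the 4 genes (circles) and of 5 tissue marker lists, each summed over its genes (squares), in embryos 1, 2 and 3. Nnat and Gnas are highest in embryo 1, as is the list of embryonic blood, heart, neural and somite genes, while the yolk sac and trophoblast lists are lowest there.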

How the data were processed

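The members and the gene lists were chosen with earlier results of these data known. The authors aligned reads to mm10 with STAR (the notes also name HTSeq) and deposited raw counts per gene for 52 oocyte libraries and allelic counts for embryos. The strand setting, annotation release and treatment of reads on overlapping genes are not given in the sources used here. The embryo tables hold 8 further columns of values, headed as wild type, that match no labelled sample and were not used.

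The quasi-likelihood test of edgeR 4.0.16 (R 4.3.3) was run on the counts after filterByExpr at a minimum count of 10 and TMM scaling, and a gene passed where its p, adjusted by Benjamini-Hochberg, was under 0.05. The 42 FGOs were in 1 fit of 4 genotypes, and MII oocytes in a fit of all 52 libraries. Alleles were compared with the embryo as a block and a common library size, for genes with at least 10 allelic counts in each embryo, since both alleles come from 1 embryo (their deviations correlated at r = 0.354 to 0.525). DESeq2 1.42.0 was an alternative test. Over 282 pairs of libraries within groups, chi-square divided by its degrees of freedom was at least 5.39, so no library appears to have been deposited again under another name. CPM values use TMM sizes over 52 libraries. Lists are described without members.

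Named genes were the 4 members, rows overlapping them, neighbours within 500 kb (in oocytes up to 3 past the test per comparison, in embryos the 3 lowest and highest shares), up to 3 list genes per comparison by lowest p and the 3 list genes with extreme shares, and the 3 genes most alike per member. The list genes printed are a subset of these. Wilson 95% intervals, and a floor of 3 counts for a count of 0, cover counting error only.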

Additional observations from a re-analysis of the deposited data

Results flagged for a closer look

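Gnas in double mutant FGO replicate 4 stood apart from the other 7 double mutant libraries, at 18.97 CPM against 13.9 to 15.7. Nespas in MII replicate 4 was at 1.48 CPM, above the other 9 MII libraries at 0 to 0.727. Nnat in Dnmt3a ADD/ADD replicate 8 was at 1.23 CPM on 22 counts, against 0 to 0.313 in the other 7. Nnat in MII replicate 5 was at 0.398 CPM on 4 counts, with the other 9 at 0. These 4 flags came from 16 groups of 8 to 10 libraries. For normally distributed values chance flags about 1 in 20 such groups, a rate that need not hold for Nnat and Nespas counts near 0. For Nnat in MII oocytes, with the other 9 libraries at 0, a count of any size would have been flagged.

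The effect of either mutation on Gnas differed with the other present, by 1.53 on the log2 scale (SE 0.201, adjusted p = 4.13e-07, edgeR contrast of the 4 FGO genotypes). For Blcap the same contrast was -0.28 (SE 0.0793, adjusted p = 0.00517). Both contrasts compare groups of unequal class of mapped reads. With the class as a covariate they were 1.06 and -0.32, both past the test. The contrast called 35.6% of all genes, or 14.2% with the covariate. Only wild-type and Dnmt3a ADD/ADD FGOs hold both classes. The covariate carries their class difference over to the double mutant and Dnmt3L ADD/ADD, so it does not separate class from the non-additive term.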

How the results depend on the processing

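The counts of members called (of 3 in FGOs) against wild type were 2 for Dnmt3a ADD/ADD, 1 for Dnmt3L ADD/ADD and 0 for the double mutant. Of all genes, 15.7%, 6.13% and 12.2% were called in this order. A 2-fold minimum took them to 0 for both single mutants, the double mutant against Dnmt3L ADD/ADD and MII, and to 1 for the non-additive term. Past that minimum were 2.05% of all genes for Dnmt3a ADD/ADD and 0.655% for Dnmt3L ADD/ADD. For the double mutant against Dnmt3L ADD/ADD, MII and the non-additive term the shares were 4.03%, 9.2% and 10.3%. With the class as a covariate, 0 were called in Dnmt3L ADD/ADD (4.27% of all genes) and in the double mutant against Dnmt3L ADD/ADD (1.18%). Within the higher class the counts were 0 for Dnmt3L ADD/ADD (7.84% of all genes called) and MII (26.5%). For Dnmt3a ADD/ADD the count was 1 in each class (6.44% of all genes in the lower and 8.59% in the higher). DESeq2 called 2 rather than 1 for the double mutant against Dnmt3a ADD/ADD, as did leaving out Dnmt3a ADD/ADD replicate 4 (range 1 to 2), where Blcap joined Gnas. In that comparison DESeq2 called 32.4% of all genes and the main test 30.9%. Signs turned for values not past the test. In the double mutant Gnas was -0.0254 within the lower class, and in MII 0.14 within the higher class. Nespas in Dnmt3L ADD/ADD was 0.12 with the covariate and 0.15 within the higher class, in Dnmt3a ADD/ADD 0.0698 within the higher class and -0.30 to 0.0762 with a library left out, and in Dnmt3a ADD/ADD minus Dnmt3L ADD/ADD -0.13 with the covariate, -0.0793 within the higher class and -0.14 to 0.23 with a library left out. Nnat in Dnmt3L ADD/ADD was 0.0773 CPM higher within the higher class. In embryos the Gnas log2 ratio was -0.14 with each allele scaled to its own total and -0.0662 to 0.22 with an embryo left out. The cause of these turns was not tested. The lost Dnmt3a ADD/ADD calls of Blcap rest on fewer libraries.

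Replicate numbers did not pair the FGO libraries: same-numbered libraries of a mutant and wild type had deviations correlated at r = -0.514 to 0.468. With the replicate block Gnas in the double mutant was -0.0111, against 0.24 without it, in Dnmt3L ADD/ADD -0.76, against -0.50, and in Dnmt3a ADD/ADD -1.04, against -0.79, and no member call changed. For Dnmt3L ADD/ADD the block thus moved Gnas away from 0, and the class as a covariate (-0.29) towards it. The block pairs mutants with wild-type replicates 1 to 8, all of the lower class. For all genes it moved the calls from 2465 to 4109 in Dnmt3a ADD/ADD, from 964 to 2830 in Dnmt3L ADD/ADD and from 1926 to 227 in the double mutant.

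Depth limits Nnat and Nespas in oocytes and Nespas in embryos, which rest on at most 24 counts a library and 36 allelic counts an embryo.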
